A study of Homo sapiens with 6 samples.

Results

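The SLC25 genes encode the mitochondrial carrier family, and the genes described here are all those in the deposited table whose symbol is SLC25A followed by a number. That rule found 36 of the 12227 listed rows, which stand for 35 genes because SLC25A6 was listed on both X and Y. The study sequenced mRNA from PC3 cells, an established human prostate cancer line, in 6 libraries. Cells of 3 libraries carried a control short hairpin RNA (shRNA) and have the genotype label WT, and cells of the other 3 carried a VprBP shRNA and are labelled VprBP knockdown. The VprBP protein, product of the DCAF1 gene, recruits substrates to a cullin ubiquitin ligase and has also been described as a kinase. Both groups were grown in DMEM with fetal bovine serum and antibiotics. Each group's samples are labelled sh1, sh2 and sh3. Nothing says if these are different hairpins, separate cultures or repeated libraries, so the p-values cover the spread between the samples alone, and that spread may be technical.

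Carriers of this family sit mostly in the inner mitochondrial membrane and exchange nucleotides, phosphate, keto acids, amino acids, cofactors and iron between the cytosol and the matrix. They are made in the cytosol from nuclear genes and reach the membrane through the outer membrane translocase, small chaperones of the intermembrane space and the carrier translocase TIM22. The adenine nucleotide carriers, which export ATP in exchange for ADP, are the best known of them, and several others are known as pairs or trios of close relatives that differ in tissue distribution.

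Values are the deposited gene signal, which had been scaled so that the upper quartile was near 79 in each library. DCAF1 was 79.4, 78.5 and 78.7 in control libraries 1 to 3 and 38.5, 41.1 and 40.2 in knockdown libraries 1 to 3. Its log2 fold change was -0.97 (SE 0.05, adjusted p = 3.56e-11). The knockdown libraries held 50.6% of the control mean, and the groups did not overlap (exact two-sided permutation p = 0.1, the smallest that 3 against 3 allows). Estimated depth was between 22981868 and 39633830 reads per library. Each SLC25 gene had at least 176 estimated reads in every library, so none depended on 1 group to be listed. Of 5 epithelial markers all were listed, and their summed signal was 2234 to 2263 in controls and 2715 to 2770 in knockdown: KRT8, KRT18 and EPCAM rose, CDH1 fell and KRT19 was not called, with log2 fold changes of 0.71, 0.61, 0.15, -0.08 and 0.01. Of 16 markers of leukocytes, fibroblasts, endothelium, fat and muscle, 4 were listed: CD68, COL1A1, PECAM1 and FABP4. PECAM1 was 53.0 to 55.2 in controls and 22.6 to 24.01 in knockdown, and FABP4 was 5.74 to 7.09 and 0.0878 to 0.224. CD68 was 25.6 to 26.8 and 25.6 to 26.9, and COL1A1 was 23.6 to 25.4 and 20.6 to 28.7, neither of them called. The part of these markers in the SLC25 values was not tested. As in any bulk sample, fewer cells expressing a gene and less RNA per cell cannot be told apart.

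Knockdown was accompanied by modest changes in both directions across the family. By limma on log2(value + 0.5), with Benjamini-Hochberg adjustment over all 12227 rows and a threshold of 0.05, 13 SLC25 genes rose, 6 fell and 16 were not called. That is 54.3% called, where 60.9% of all rows were called. The share that rose was 37.1%, against 33% of all rows, and the share that fell was 17.1%, against 27.8%. Library values of the groups did not overlap for 24 of the 35 genes, or 68.6%, against 64.8% of all rows. The median log2 fold change, knockdown over control on the log2(value + 0.5) scale, was 0.08 for the family and 0.02 for all rows. The median size without sign was 0.17, against 0.21. Only SLC25A24 reached 1.5-fold, a size that 11.6% of all rows reached with a call. Under 2 other scalings of the libraries, and in a fit on estimated reads, the split was 12 higher and 9 lower, because SLC25A3 lost its call and SLC25A1, SLC25A25 and SLC25A43 were called lower.

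**Figure D1:**
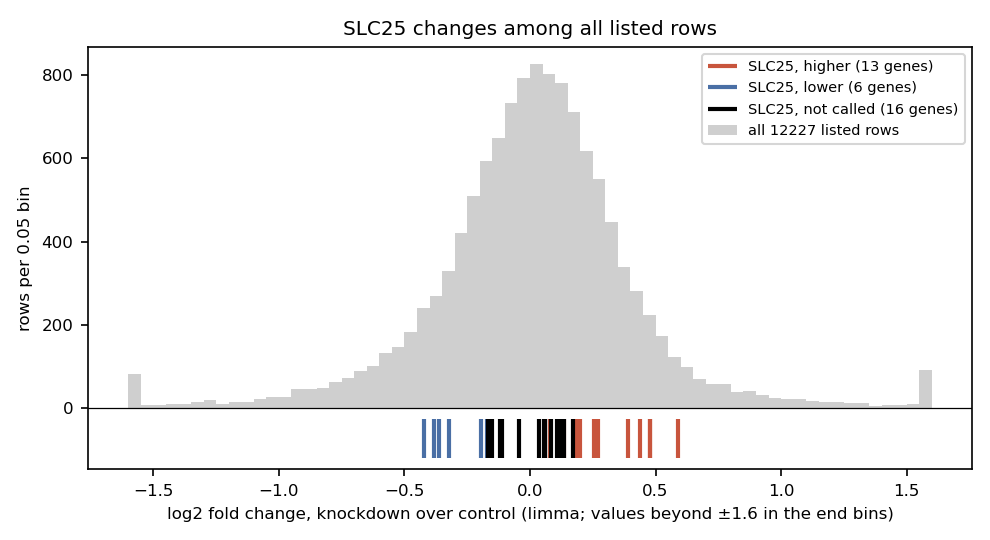
Histogram of log2 fold changes of all 12227 rows in bins of 0.05 (grey, y axis: rows per bin), with SLC25 genes as ticks below it, coloured by call. The SLC25 ticks lie within the middle of the distribution, from -0.42 for SLC25A36 to 0.59 for SLC25A24.

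**Figure D2:**
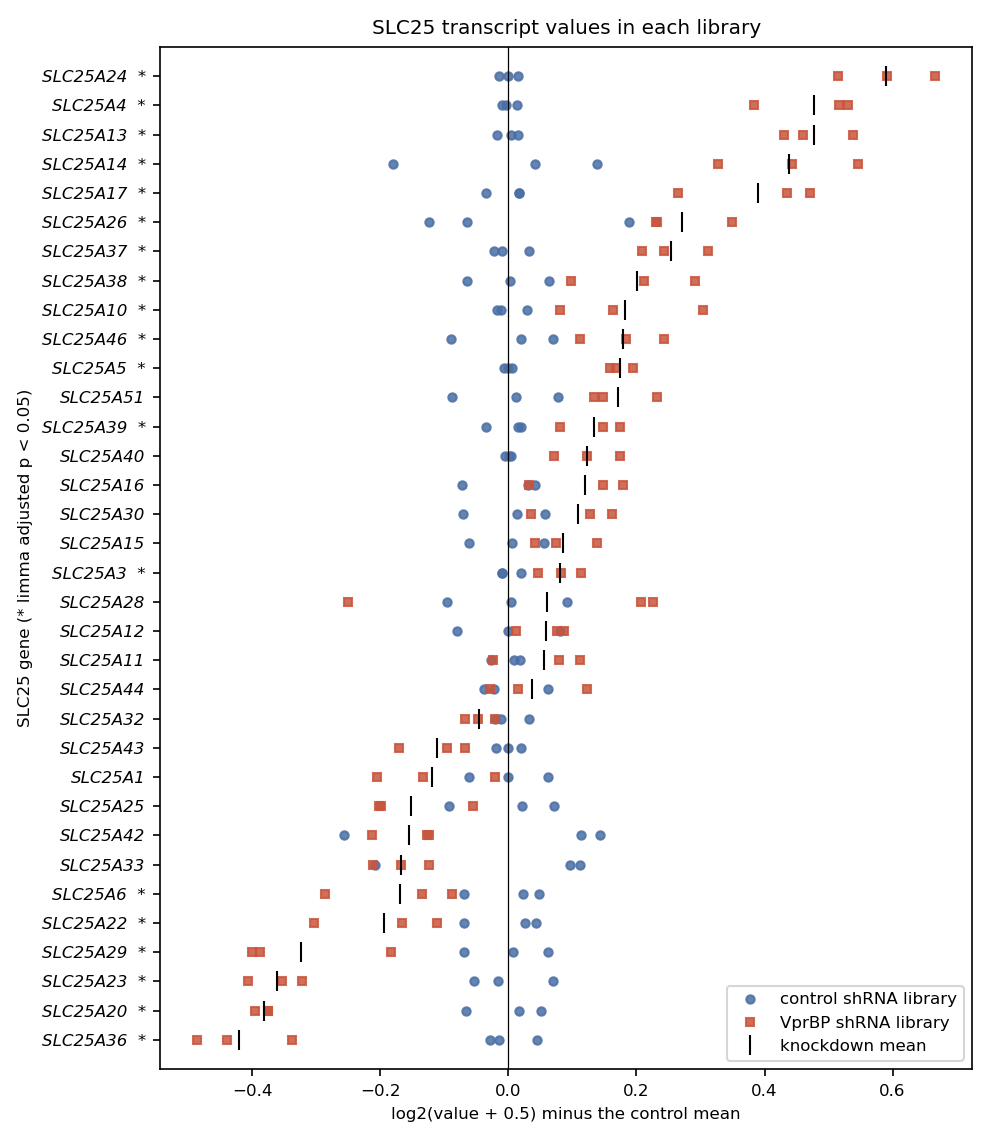
Log2(value + 0.5) of 34 of the 35 SLC25 genes in each library, minus its control mean (x axis), for control (circles) and knockdown (squares) libraries, genes ordered by fold change; black bars are knockdown means and asterisks mark the 19 called genes. All 19 called genes have groups that do not overlap, and 4 genes shown that were not called also do.

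The genes with the largest changes were SLC25A24, SLC25A4 and SLC25A13, which rose, and SLC25A36, SLC25A20 and SLC25A23, which fell. Their upstream sequences are shown because these genes moved most in each direction. Each line gives the 250 bases before the annotated transcript start, 5′ to 3′ on the gene's strand, from RefSeq on GRCh38.p14. For SLC25A24 and SLC25A23 these bases lie wholly inside the deposited gene span. SLC25A24 had 2 such windows, and the more upstream window is shown. Capitals mark matches, on either strand, to any of 9 motifs searched: E-box CACGTG, NRF1 GCGC then any 2 bases then GCGC, ETS CCGGAAG, YY1 AAGATGG then CGG, CCAAT, CRE TGACGTCA, CARE TGATGNAA, ERR TCAAGGTCA and ISRE GAAA then any 2 bases then GAAA. No motif in that list contains another. The windows are chr1:108200344-108200593 (minus strand) for SLC25A24, chr4:185143016-185143265 (plus) for SLC25A4, chr7:96322099-96322348 (minus) for SLC25A13, chr3:140941586-140941835 (plus) for SLC25A36, chr3:48898883-48899132 (minus) for SLC25A20 and chr19:6459793-6460042 (minus) for SLC25A23.
SLC25A24: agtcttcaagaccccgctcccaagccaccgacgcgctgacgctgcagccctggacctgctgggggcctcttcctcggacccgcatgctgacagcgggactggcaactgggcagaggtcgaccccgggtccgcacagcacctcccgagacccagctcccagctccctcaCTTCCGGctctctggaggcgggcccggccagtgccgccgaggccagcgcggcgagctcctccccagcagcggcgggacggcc
SLC25A4: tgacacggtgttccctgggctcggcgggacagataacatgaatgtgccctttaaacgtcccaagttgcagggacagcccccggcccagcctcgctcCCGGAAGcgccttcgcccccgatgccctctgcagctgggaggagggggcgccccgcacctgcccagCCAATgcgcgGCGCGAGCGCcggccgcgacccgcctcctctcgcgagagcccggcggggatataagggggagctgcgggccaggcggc
SLC25A13: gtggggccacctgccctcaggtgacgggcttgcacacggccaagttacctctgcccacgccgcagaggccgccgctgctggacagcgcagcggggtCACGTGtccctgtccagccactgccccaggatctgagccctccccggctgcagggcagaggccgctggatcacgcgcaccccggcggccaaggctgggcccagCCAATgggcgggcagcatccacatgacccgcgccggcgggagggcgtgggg
SLC25A36: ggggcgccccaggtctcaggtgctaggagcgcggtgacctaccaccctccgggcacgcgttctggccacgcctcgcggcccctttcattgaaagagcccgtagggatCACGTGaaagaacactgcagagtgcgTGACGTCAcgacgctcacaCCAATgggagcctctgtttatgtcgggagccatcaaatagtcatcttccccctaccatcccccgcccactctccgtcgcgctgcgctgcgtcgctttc
SLC25A20: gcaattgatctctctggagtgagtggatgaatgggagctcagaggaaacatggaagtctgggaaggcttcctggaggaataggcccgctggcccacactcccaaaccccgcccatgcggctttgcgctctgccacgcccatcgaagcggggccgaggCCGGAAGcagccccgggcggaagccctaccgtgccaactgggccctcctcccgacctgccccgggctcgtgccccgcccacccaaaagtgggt
SLC25A23: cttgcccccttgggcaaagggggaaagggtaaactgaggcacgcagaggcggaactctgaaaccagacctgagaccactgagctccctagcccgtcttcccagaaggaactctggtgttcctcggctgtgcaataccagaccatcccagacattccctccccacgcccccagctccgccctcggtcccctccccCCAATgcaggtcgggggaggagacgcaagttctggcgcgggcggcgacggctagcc

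In SLC25A24 the capitals are 1 ETS match on the opposite strand, 82 to 76 bases before the start. SLC25A4 has an ETS match at 154 to 148 bases, CCAAT at 88 to 84 and an NRF1 match at 78 to 69. SLC25A13 has an E-box at 154 to 149 bases and CCAAT at 51 to 47. SLC25A36 has an E-box at 143 to 138 bases, a CRE at 117 to 110 and CCAAT at 98 to 94. SLC25A20 has 1 ETS match at 93 to 87 bases, and SLC25A23 has 1 CCAAT at 56 to 52. A match describes letters and is not a site of binding.

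RefSeq windows of 300 bases, 50 of them after the start, were at hand for 30 of the 35 genes, 38 windows in all. ETS was in 26.3% of these windows against 10.3% of 34961 windows of all genes. Those windows were not limited to listed genes, whereas all SLC25 windows are of listed genes, so the sets are not alike. The E-box was in 21.1% against 7.27%, NRF1 in 18.4% against 8.34%, CCAAT in 44.7% against 34.6% and CRE in 7.89% against 1.85%. CARE was in 2.63% against 3.62%, and ISRE in 2.63% against 3.58%. YY1 and ERR letters were in none of the SLC25 windows, against 1.21% and 0.355% of all windows. By gene, ETS was found in 7 of 12 that rose, 2 of 6 that fell and 1 of 12 that were not called. The E-box was found in 4 of 12, 2 of 6 and 2 of 12, and NRF1 in 4 of 12, 0 of 6 and 3 of 12. CCAAT was found in 5 of 12, 5 of 6 and 6 of 12. Shares and counts take in the whole window and every window of a gene, so they include matches outside the printed bases. They describe few genes and were not tested.

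Among the adenine nucleotide carriers, SLC25A4 and SLC25A5 rose and SLC25A6 fell. SLC25A4 (chr4:185143266-185150382, plus strand), the isoform known from heart and skeletal muscle, was 23.8, 23.95 and 24.2 in control libraries 1 to 3 and 34.6, 34.9 and 31.5 in knockdown libraries 1 to 3. All 3 knockdown values lay above all controls, a 1.40-fold rise with a log2 fold change of 0.48 (SE 0.06, adjusted p = 5.79e-06). SLC25A5 (chrX:119468422-119471396, plus strand), the isoform of proliferating cells, was 861, 853 and 857 in control libraries 1 to 3 and 957, 963 and 981 in knockdown libraries 1 to 3. Its groups were apart by a small margin relative to its level, at 1.13-fold and a log2 fold change of 0.17 (SE 0.03, adjusted p = 5.71e-05). SLC25A6 (chrX:1386152-1392113, minus strand), a broadly expressed isoform in the pseudoautosomal region, was 169.7, 159 and 173 in control libraries 1 to 3 and 152, 157 and 137 in knockdown libraries 1 to 3. The highest knockdown value was just below the lowest control, and the log2 fold change was -0.17 (SE 0.05, adjusted p = 0.00657). SLC25A6 was listed once on X and once on Y with identical values, so whether its reads were split or counted in both places cannot be told from the table. Its call was lost with a constant prior variance (adjusted p = 0.0563).

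Per kilobase of the annotated principal transcript, SLC25A5 made up most of the adenine nucleotide carrier signal. Its share of the trio was 88.6% ± 0.376 (SD, n = 3) in controls and 90.5% ± 0.691 in knockdown. SLC25A6 held 10.7% ± 0.378 and 8.60% ± 0.638, and SLC25A4 held 0.712% ± 0.00753 and 0.904% ± 0.0544. Each of the 3 shares had groups that did not overlap. Of the SLC25A5 transcript, 18.8% of 50-base stretches also occur in transcripts of other genes, so its reads could have been split by the authors' counting. SLC25A3, the phosphate carrier that supplies ATP synthase, went from 414 ± 5.06 to 438 ± 10.2 (SD, n = 3) with a log2 fold change of 0.08 (SE 0.03, adjusted p = 0.0363). That call was lost in 9 of 14 alternatives, with adjusted p from 0.0775 to 0.144.

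The 17 listed genes of ATP synthase and the permeability pore split into 4 that rose, 5 that fell and 8 uncalled. Of all rows, 33% rose and 27.8% fell. The list's median log2 fold change was 0.05. PPIF, the cyclophilin that regulates pore opening, rose from 555 ± 3.66 to 757 ± 7.02 (log2 fold change 0.45, SE 0.03, adjusted p = 1.23e-09). ATP5MC1, a subunit of the ATP synthase rotor ring, fell from 68.8 ± 3.67 to 48.0 ± 1.12 (log2 fold change -0.51, SE 0.05, adjusted p = 2.54e-07). Calls among these partners of the SLC25 nucleotide and phosphate carriers thus went both ways.

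The calcium-regulated ATP-Mg/phosphate carriers, which load the matrix with adenine nucleotides, held the largest rise and a large fall side by side. SLC25A24 (chr1:108134043-108200849, minus strand) was 70.7, 71.4 and 70.0 in control libraries 1 to 3 and 101, 107 and 113 in knockdown libraries 1 to 3. Every knockdown library was above every control, a 1.51-fold difference with a log2 fold change of 0.59 (SE 0.05, adjusted p = 1.17e-08). SLC25A23 (chr19:6436079-6465203, minus strand) was 134, 131 and 142 in control libraries 1 to 3 and 106, 108 and 102 in knockdown libraries 1 to 3. Every knockdown library was below every control, a 1.29-fold lower mean with a log2 fold change of -0.36 (SE 0.04, adjusted p = 1.92e-06). SLC25A25 (chr9:128068201-128109245, plus strand) was 24.1, 21.5 and 23.3 in control libraries 1 to 3 and 19.9, 22.03 and 19.8 in knockdown libraries 1 to 3. The groups overlapped, and its log2 fold change of -0.15 was not called (95% interval -0.31 to 0.00, adjusted p = 0.0808).

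Per kilobase, SLC25A24 went from 26.4% ± 1.03 (SD, n = 3) to 40.5% ± 1.81 of this trio, and SLC25A23 from 63.1% ± 1.04 to 49.9% ± 1.56. SLC25A25 was 10.5% ± 0.490 and 9.59% ± 0.432. The sum of the trio was 62.8 ± 1.82 per kilobase of principal transcript in controls and 61.8 ± 1.31 in knockdown. The groups overlapped in the sum and did not overlap in the share of any gene of the trio. For SLC25A25 the margin was small, with a highest knockdown share of 10.07% and a lowest control share of 10.12%. The ratio of SLC25A24 to SLC25A23 went from 0.418 to 0.811. By merged exons, a longer measure of length for SLC25A24, its share was 19.9% and 32.1%. SLC25A24 shares 13.5% of its 50-base stretches with other transcripts. SLC25A23 overlaps CRB3 on the opposite strand, and the sources used here do not say whether reads were assigned by strand. CRB3 itself had a log2 fold change of -0.01 and was not called.

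**Figure D3:**
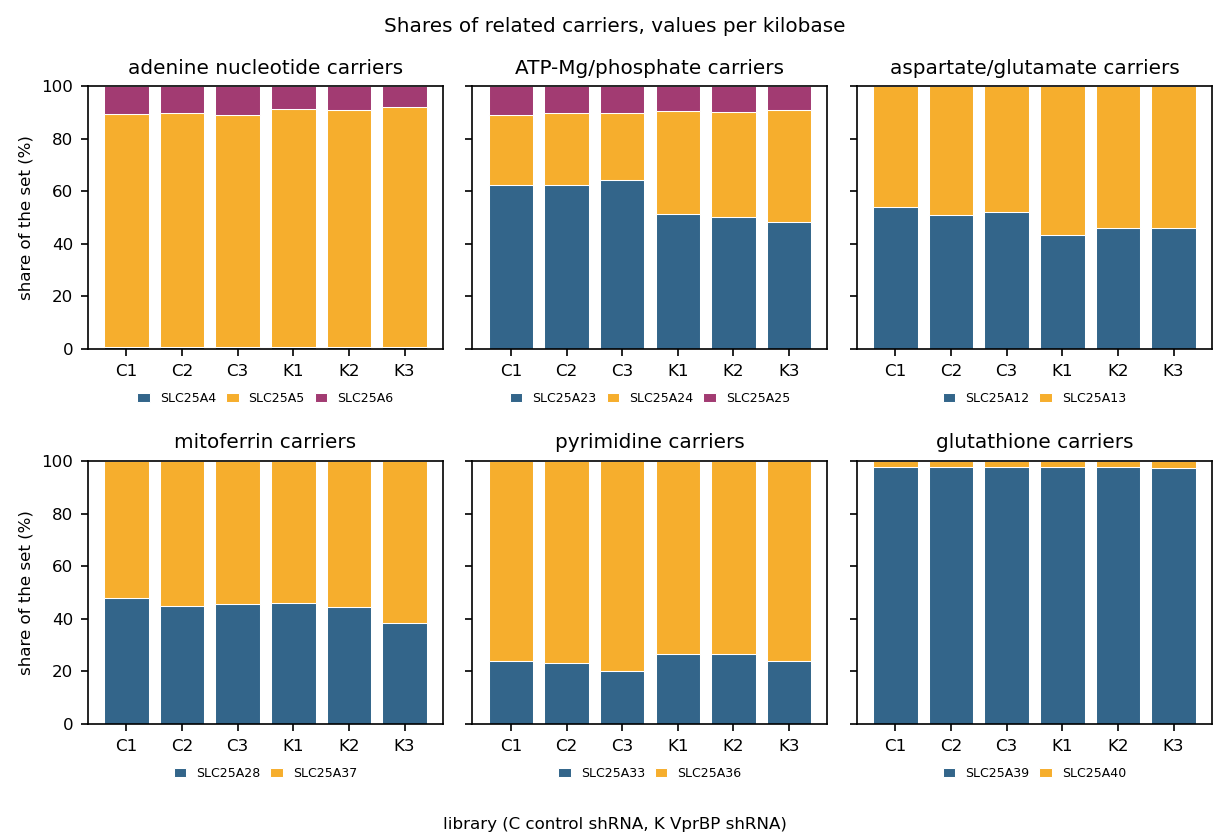
Share of each carrier in its set of close relatives (y axis, percent of the set's summed value per kilobase) in each library (x axis, C1 to C3 control, K1 to K3 knockdown). The SLC25A24 share is 25.3% to 27.4% in control libraries and 39.2% to 42.6% in knockdown libraries, while the SLC25A39 share stays between 97.5% and 97.8%.

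The aspartate/glutamate carriers feed the malate-aspartate shuttle, which moves reducing equivalents into the matrix. SLC25A13, known as citrin (chr7:96120220-96322147, minus strand), was 32.1, 32.5 and 32.8 in control libraries 1 to 3 and 47.4, 44.8 and 43.9 in knockdown libraries 1 to 3. Its groups were well apart, 1.40-fold higher in knockdown with a log2 fold change of 0.48 (SE 0.05, adjusted p = 1.20e-06). SLC25A12, known as aralar (chr2:171783405-171999859, minus strand), was 35.9, 32.1 and 33.9 in control libraries 1 to 3 and 34.2, 36.1 and 35.8 in knockdown libraries 1 to 3. Its groups overlapped and its log2 fold change of 0.06 was not called (95% interval -0.07 to 0.18, adjusted p = 0.413). SLC25A13 held 47.6% ± 1.61 (SD, n = 3) of the pair per kilobase in controls and 54.9% ± 1.64 in knockdown, and the pair's sum went from 21.7 ± 0.571 to 26.3 ± 0.294. SLC25A12 lies across HAT1 on the opposite strand, and HAT1 had a log2 fold change of 0.25.

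SLC25A22, a glutamate carrier (chr11:790475-798281, minus strand), was 45.6, 42.2 and 45.1 in control libraries 1 to 3 and 40.9, 39.4 and 35.8 in knockdown libraries 1 to 3. All knockdown values were below the controls, with a log2 fold change of -0.19 (SE 0.06, adjusted p = 0.0104). Without control library 1 the adjusted p was 0.0511. Of the 6 listed shuttle enzymes, 2 rose, 3 fell and 1 was uncalled (all rows: 33% rose, 27.8% fell). The list's median log2 fold change was -0.21. MDH2, the matrix malate dehydrogenase, fell from 394 ± 3.13 to 292 ± 0.733 (log2 fold change -0.43, SE 0.03, adjusted p = 3.82e-09) and GOT1, the cytosolic aspartate transaminase, fell from 98.8 ± 4.76 to 72.8 ± 3.65 (log2 fold change -0.44, SE 0.05, adjusted p = 1.01e-06). GOT2, its mitochondrial counterpart, rose with a log2 fold change of 0.14 (SE 0.04, adjusted p = 0.00333). MDH1, the cytosolic malate dehydrogenase, rose with a log2 fold change of 0.13 (SE 0.05, adjusted p = 0.0302), although its groups overlapped and both other scalings lost the call. GPD1L, a relative of the cytosolic glycerophosphate dehydrogenase, had the largest change of the list and fell from 111 ± 3.94 to 56.3 ± 0.723 (log2 fold change -0.97, SE 0.04, adjusted p = 1.30e-11).

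The di- and tricarboxylate carriers changed little. SLC25A10, the dicarboxylate carrier, went from 61.1 ± 1.12 to 69.6 ± 5.53 (SD, n = 3) with a log2 fold change of 0.18 (SE 0.05, adjusted p = 0.00815), a call lost without knockdown library 1 (adjusted p = 0.0638). Of its transcript, 56.9% of 50-base stretches occur in other annotated transcripts, so its value is uncertain. SLC25A1, the citrate carrier, was 87.7, 80.4 and 83.9 in control libraries 1 to 3 and 82.7, 76.5 and 72.7 in knockdown libraries 1 to 3. The groups overlapped, and its log2 fold change of -0.12 was not called (adjusted p = 0.0540), though it was called lower in 5 of 14 alternatives. SLC25A11, the oxoglutarate/malate carrier, had a log2 fold change of 0.06 that was not called (95% interval -0.04 to 0.16). Of 11 enzymes of citrate, malate and oxoglutarate, 3 rose, 6 fell and 2 were not called (all rows: 33% rose, 27.8% fell). PC, pyruvate carboxylase, fell from 43.3 ± 1.89 to 25.3 ± 1.26 (log2 fold change -0.76, SE 0.06, adjusted p = 1.75e-08), and ACLY, which cleaves exported citrate, rose with a log2 fold change of 0.24 (SE 0.03, adjusted p = 1.87e-05).

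Of the other amino acid carriers, SLC25A38 rose, SLC25A29 fell and SLC25A15 and SLC25A44 were not called. SLC25A29, a carrier of basic amino acids (chr14:100291116-100306547, minus strand), was 30.1, 31.8 and 33.0 in control libraries 1 to 3 and 27.8, 23.8 and 24.1 in knockdown libraries 1 to 3. Knockdown library 1 was nearest to the controls but still below them, and the mean was 1.25-fold lower with a log2 fold change of -0.32 (SE 0.07, adjusted p = 7.93e-04). SLC25A38, a glycine carrier needed for haem synthesis (chr3:39383370-39397351, plus strand), was 31.3, 28.6 and 30.0 in control libraries 1 to 3 and 34.7, 32.1 and 36.7 in knockdown libraries 1 to 3. The groups did not overlap, although knockdown library 2 was close to control library 1, and the log2 fold change was 0.20 (SE 0.06, adjusted p = 0.0129). Without control library 2 the adjusted p was 0.0562. SLC25A15, the ornithine carrier, and SLC25A44, a carrier of branched-chain amino acids, had log2 fold changes of 0.08 and 0.04, with overlapping groups. Of 8 listed enzymes of glutamate, proline and ornithine, 1 rose, 5 fell and 2 were not called (all rows: 33% rose, 27.8% fell). ARG2, the mitochondrial arginase that makes ornithine, fell from 7.21 ± 1.15 to 2.91 ± 0.149 (log2 fold change -1.17, SE 0.14, adjusted p = 3.33e-06).

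SLC25A20, the carnitine/acylcarnitine carrier that brings fatty acyl groups into the matrix for oxidation (chr3:48856926-48898904, minus strand), was 21.0, 22.2 and 22.8 in control libraries 1 to 3 and 16.6, 16.8 and 16.8 in knockdown libraries 1 to 3. The knockdown values were close together and all below the controls, 1.31-fold lower with a log2 fold change of -0.38 (SE 0.07, adjusted p = 1.80e-04). Of 10 listed genes of acylcarnitine and fatty acid handling, 1 rose, 4 fell and 5 were not called (all rows: 33% rose, 27.8% fell). CPT1A, which makes acylcarnitine at the outer membrane, fell from 222 ± 6.22 to 141 ± 2.23 (log2 fold change -0.65, SE 0.04, adjusted p = 2.04e-10). CRAT, carnitine acetyltransferase, fell from 21.8 ± 0.830 to 15.0 ± 0.372 (log2 fold change -0.52, SE 0.07, adjusted p = 1.00e-05), and SLC22A5, the plasma membrane carnitine transporter, fell with a log2 fold change of -0.34 (SE 0.06, adjusted p = 9.93e-05). These 3 are named as the largest falls of the list, and CPT2, CPT1B and CPT1C, other carnitine palmitoyltransferases, had log2 fold changes of -0.06, 0.13 and 0.03 and were not called. ACADVL, an acyl-CoA dehydrogenase, rose with a log2 fold change of 0.11 (SE 0.03, adjusted p = 0.00795).

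The carriers of cofactors and nucleotides were the largest group, with 2 of 9 that rose, 1 that fell and 6 not called. Of all rows, 33% rose and 27.8% fell. SLC25A36, a pyrimidine nucleotide carrier (chr3:140941830-140980995, plus strand), was 74.3, 78.2 and 75.0 in control libraries 1 to 3 and 54.0, 55.8 and 59.8 in knockdown libraries 1 to 3. It was lower in every knockdown library, by 1.34-fold with a log2 fold change of -0.42 (SE 0.05, adjusted p = 1.74e-06), the largest fall in the family. SLC25A33, the other pyrimidine carrier (chr1:9539465-9585173, plus strand), was 19.5, 19.7 and 15.7 in control libraries 1 to 3 and 16.1, 16.6 and 15.6 in knockdown libraries 1 to 3. Control library 3 lay among the knockdown values, and the log2 fold change of -0.17 was not called (adjusted p = 0.114), but without that library it was -0.27 (adjusted p = 0.0113). The pair's sum per kilobase went from 21.1 ± 0.864 (SD, n = 3) to 16.4 ± 0.568.

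SLC25A17, a peroxisomal carrier of coenzyme A and related cofactors (chr22:40769630-40819399, minus strand), was 36.7, 36.7 and 35.4 in control libraries 1 to 3 and 49.2, 43.7 and 50.5 in knockdown libraries 1 to 3. Every knockdown value was above the controls, 1.32-fold higher with a log2 fold change of 0.39 (SE 0.06, adjusted p = 3.16e-05). SLC25A26, which imports S-adenosylmethionine (chr3:66133610-66388116, plus strand), was 14.8, 12.3 and 11.8 in control libraries 1 to 3 and 16.6, 15.3 and 15.3 in knockdown libraries 1 to 3. Control library 1 came close to the knockdown values, and the log2 fold change was 0.27 (SE 0.09, adjusted p = 0.0183). The call was lost without control library 2, control library 3 or knockdown library 1 (adjusted p = 0.0623, 0.0856 and 0.0833). SLC25A26 also overlaps LRIG1 on the opposite strand, and LRIG1 had a log2 fold change of -0.78.

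SLC25A51, the mitochondrial NAD carrier (chr9:37879400-37904353, minus strand), was 9.99, 10.7 and 11.3 in control libraries 1 to 3 and 11.9, 11.7 and 12.6 in knockdown libraries 1 to 3. The knockdown values were all above the controls, but the log2 fold change of 0.17 was not called (95% interval -0.02 to 0.36, adjusted p = 0.110). Of its 50-base stretches, 27.4% occur in transcripts of other genes, its close copy SLC25A52 among them. The mitochondrial coenzyme A carriers SLC25A16 and SLC25A42 were low and had overlapping groups. SLC25A16 (chr10:68477998-68527523, minus strand) was 22.6, 22.4 and 20.8 in control libraries 1 to 3 and 24.3, 22.4 and 24.9 in knockdown libraries 1 to 3, and its log2 fold change of 0.12 was not called. SLC25A42 (chr19:19063994-19113030, plus strand) was 12.4, 9.49 and 12.7 in control libraries 1 to 3 and 10.4, 10.4 and 9.79 in knockdown libraries 1 to 3, and its log2 fold change of -0.16 was not called, with the widest lower bound of the uncalled genes at -0.39. Without control library 2, the lowest control, SLC25A42 was called at -0.28 (adjusted p = 0.0239).

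SLC25A32, a folate and FAD carrier, had a log2 fold change of -0.05, and 97.5% of its 50-base stretches also occur in annotated transcripts of other genes. Among 11 listed genes of NAD, coenzyme A, thiamine and FAD synthesis, 1 rose, 7 fell and 3 were uncalled. Of all rows, 33% rose and 27.8% fell. The list's median log2 fold change was -0.26. NAMPT, the rate-limiting enzyme of NAD salvage, fell from 319 ± 9.36 to 220.1 ± 13.2 (log2 fold change -0.53, SE 0.04, adjusted p = 1.47e-08), and COASY, which completes coenzyme A, fell with a log2 fold change of -0.41 (SE 0.05, adjusted p = 8.78e-07). Of 8 one-carbon genes, 2 rose, 2 fell and 4 were not called, beside the same shares of all rows. MTHFD2L rose from 15.8 ± 1.29 to 27.1 ± 0.672 (log2 fold change 0.77, SE 0.07, adjusted p = 1.99e-07), and MTHFD2, its close relative, fell from 356 ± 10.5 to 289 ± 11.8 (log2 fold change -0.30, SE 0.04, adjusted p = 3.10e-06).

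Of the 4 iron and glutathione carriers, 2 rose and none was called lower (all rows: 33% rose, 27.8% fell). SLC25A37, a mitoferrin that imports iron, was 73.9, 73.3 and 76.1 in control libraries 1 to 3 and 88.2, 92.5 and 86.1 in knockdown libraries 1 to 3. The groups were apart, 1.19-fold higher in knockdown with a log2 fold change of 0.25 (SE 0.04, adjusted p = 1.00e-04). SLC25A28, the other mitoferrin (chr10:99610519-99622793, minus strand), was 20.6, 18.0 and 19.3 in control libraries 1 to 3 and 22.6, 22.3 and 16.1 in knockdown libraries 1 to 3. Knockdown library 3 was the lowest of the 6 and the other knockdown values were the highest, and its log2 fold change of 0.06 was not called. Without knockdown library 3 it was 0.22 (adjusted p = 0.0222).

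SLC25A39, a glutathione carrier (chr17:44319625-44324870, minus strand), was 394, 379.8 and 393 in control libraries 1 to 3 and 439, 431 and 411 in knockdown libraries 1 to 3. All knockdown libraries were above the controls, with a log2 fold change of 0.13 (SE 0.03, adjusted p = 0.00270). SLC25A40, its relative (chr7:87833568-87876360, minus strand), was 24.1, 23.99 and 24.2 in control libraries 1 to 3 and 25.3, 26.3 and 27.2 in knockdown libraries 1 to 3. Its groups were also apart, but the log2 fold change of 0.12 was not called (95% interval -0.01 to 0.25, adjusted p = 0.0993). The pair kept its proportions, with SLC25A39 at 97.6% ± 0.0419 (SD, n = 3) and 97.7% ± 0.160 of the sum per kilobase. Of 13 iron-sulfur, haem and glutathione enzymes, 1 rose, 8 fell and 4 were uncalled (all rows: 33% rose, 27.8% fell). The list's median log2 fold change was -0.15. GSR, glutathione reductase, fell from 127 ± 7.45 to 78.5 ± 1.77 (log2 fold change -0.69, SE 0.05, adjusted p = 2.11e-09), and ALAS1, the first enzyme of haem synthesis, fell from 177 ± 5.34 to 118 ± 0.684 (log2 fold change -0.59, SE 0.04, adjusted p = 1.05e-09). FDX2, a ferredoxin of iron-sulfur cluster assembly, rose with a log2 fold change of 0.52 (SE 0.08, adjusted p = 2.29e-05).

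Of the uncoupling-protein-like carriers, SLC25A14 (chrX:130339888-130373361, plus strand) was 8.64, 9.28 and 7.34 in control libraries 1 to 3 and 11.6, 10.6 and 12.5 in knockdown libraries 1 to 3. It was low but higher in every knockdown library, with a log2 fold change of 0.44 (SE 0.11, adjusted p = 0.00205). SLC25A30 had a log2 fold change of 0.11 that was not called. SLC25A46, an outer membrane protein of mitochondrial dynamics, rose from 66.4 ± 3.73 to 75.3 ± 3.46 (SD, n = 3; log2 fold change 0.18, SE 0.05, adjusted p = 0.00654). SLC25A43, whose substrate is unsettled, was 58.4, 56.8 and 57.6 in control libraries 1 to 3 and 51.1, 53.9 and 54.9 in knockdown libraries 1 to 3. Its groups were apart, and the log2 fold change of -0.11 was not called (adjusted p = 0.0544), though it was called lower in 4 of 14 alternatives.

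The 16 uncalled SLC25 genes had log2 fold changes from -0.17 to 0.17 and 95% intervals within -0.39 to 0.36. Changes of that size are therefore not excluded for them. The groups of SLC25A32, SLC25A40, SLC25A43 and SLC25A51 did not overlap. A test against a minimum of 1.5-fold (limma's treat) called 0 of the 35 genes, with 0 at an unadjusted p under 0.05, and 651 of all rows.

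Some SLC25 values could include reads of other genes. By deposited gene positions, introns included, 9 of the 35 genes overlap a listed gene on the opposite strand. They are SLC25A11, SLC25A12, SLC25A23, SLC25A25, SLC25A26, SLC25A30, SLC25A32, SLC25A40 and SLC25A51. In GENCODE 29, shared 50-base stretches made up under 5% of the transcript for 24 genes, and 13 of these shared none. Beyond those already given, the shares were 21.6% for SLC25A33, 15.4% for SLC25A25, 12.5% for SLC25A22, 10.9% for SLC25A29 and 10.3% for SLC25A11.

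Levels spanned 200-fold between SLC25 genes when compared per kilobase of principal transcript. In controls SLC25A5 was highest at 673 ± 2.90 (SD, n = 3), followed by SLC25A3 at 273 ± 3.33, SLC25A39 at 247 ± 5.20, SLC25A6 at 81.0 ± 3.45 and SLC25A1 at 51.0 ± 2.21. The lowest were SLC25A30 at 4.55 ± 0.210, SLC25A42 at 3.70 ± 0.567 and SLC25A16 at 3.36 ± 0.147. Control libraries of neighbours in this order overlapped for 13 of 34 pairs. SLC25A24, SLC25A22, SLC25A36, SLC25A17 and SLC25A37 had control means between 15.4 and 16.6 per kilobase, and each neighbouring pair among them overlapped, although every control value of SLC25A24 was above those of SLC25A17 and SLC25A37. The 4 highest were the same by merged exons, but in another order. By that measure the control mean of SLC25A3 was 60.4, below SLC25A39 at 237 and SLC25A6 at 81.0. The largest shift in rank was 7 places, for SLC25A24 and SLC25A36.

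**Figure D4:**
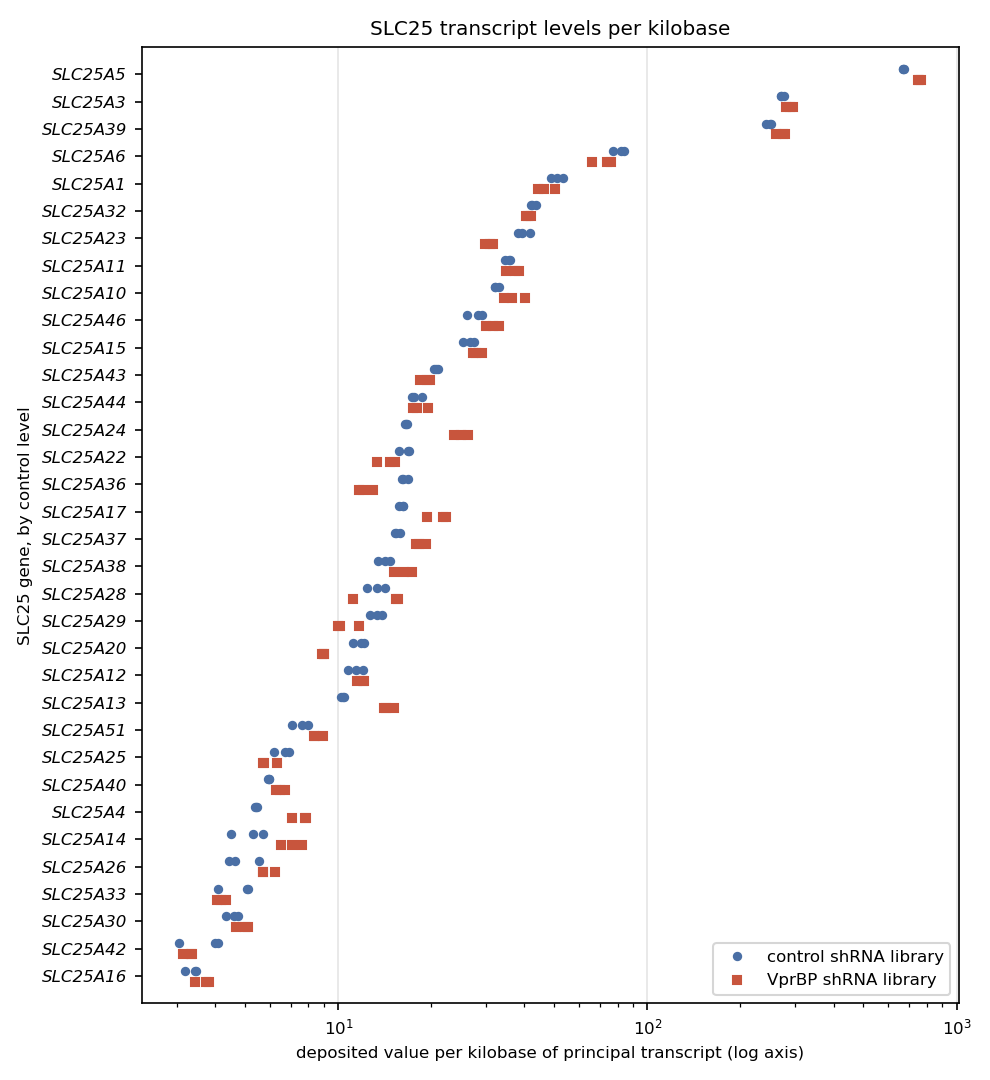
Deposited value per kilobase of principal transcript (x axis, log scale) for 34 of the 35 SLC25 genes in control (circles) and knockdown (squares) libraries, ordered by control level. SLC25A5, SLC25A3 and SLC25A39 lie above all others, and SLC25A24 moves from among genes near 16.5 to the right in knockdown.

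The summed signal of the 35 genes, not divided by length, was 3205 ± 27.5 (SD, n = 3) in controls and 3403 ± 16.2 in knockdown. SLC25A5 was 26.7% of the control sum and 28.4% of the knockdown sum. Without SLC25A5 the sum was 2323 to 2371 in controls and 2411 to 2464 in knockdown. The balance of close relatives was compared in 11 pairs, of which 7 had ratios that did not overlap between groups. For comparison, the values of 64.8% of all single rows did not overlap. Pairs within a trio share genes, so their ratios are not separate results. Each of the 7 pairs gave an exact two-sided permutation p of 0.1, the smallest possible, and 0.157 after adjustment over the 11. The largest difference was SLC25A24 over SLC25A23, 0.96 on the log2 scale. For SLC25A39 over SLC25A40 the ratio was 41.5 and 41.8 (permutation p = 0.8).

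The genes that bring the carriers to the membrane included several that rose. Of 16 listed genes of the carrier import machinery, 9 rose, 0 fell and 7 were uncalled, where 33% of all rows rose and 27.8% fell. The list's median log2 fold change was 0.14, against 0.02 for all rows, and TIMM13, TIMM29 and TOMM70 had uncalled values of -0.12, -0.05 and -0.05. Under the 2 other scalings TIMM13 was called lower, and a gene that rose here lost its call. TIMM10, a chaperone of the intermembrane space that escorts carriers, rose from 36.6 ± 0.196 to 51.9 ± 1.85 (log2 fold change 0.50, SE 0.05, adjusted p = 4.03e-07). TOMM22 and TOMM7, of the outer membrane translocase, rose with log2 fold changes of 0.26 (SE 0.05, adjusted p = 4.69e-04) and 0.25 (SE 0.05, adjusted p = 8.17e-04). Among proteins that share the carrier fold under other names, MTCH1 rose (log2 fold change 0.15, SE 0.04, adjusted p = 0.00187), as did MTCH2 (log2 fold change 0.18, SE 0.06, adjusted p = 0.0133), whose groups overlapped. UCP2, an uncoupling protein, had a log2 fold change of -0.07 and was not called.

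Of 21 listed mitochondrial transporters outside the SLC25 family, 8 rose, 4 fell and 9 were not called (all rows: 33% rose, 27.8% fell). SFXN2, a sideroflexin, rose from 4.42 ± 0.262 to 7.81 ± 1.02 (log2 fold change 0.75, SE 0.13, adjusted p = 9.05e-05), and SFXN1, the serine-transporting sideroflexin, fell from 113 ± 3.42 to 97.9 ± 1.93 (log2 fold change -0.21, SE 0.04, adjusted p = 3.08e-04). Of 11 listed transcriptional regulators of mitochondrial genes, 8 fell, 2 rose and 1 was not called, where 27.8% of all rows fell and 33% rose. MYC, a growth-promoting transcription factor, fell from 575 ± 6.74 to 243 ± 10.3 (log2 fold change -1.24, SE 0.03, adjusted p = 3.24e-14). PPARGC1B, a coactivator of mitochondrial genes, fell from 54.4 ± 0.402 to 25.4 ± 1.95 (log2 fold change -1.08, SE 0.06, adjusted p = 2.32e-10), and PPARA, a regulator of fatty acid oxidation, fell from 42.9 ± 1.07 to 23.2 ± 1.33 (log2 fold change -0.87, SE 0.06, adjusted p = 3.47e-09). TFAM, which packages mitochondrial DNA, rose with a log2 fold change of 0.23 (SE 0.04, adjusted p = 4.76e-05). Over all 12 lists, 135 of 145 genes were listed, of which 36 rose, 52 fell and 47 were not called. The called share was 65.2%, against 60.9% of all rows. Under the 2 other scalings 32 rose, and 5 or 4 further genes, by scaling, were called lower. The median log2 fold change of the 135 genes was -0.05, against 0.08 for the SLC25 genes and 0.02 for all rows.

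**Figure D5:**
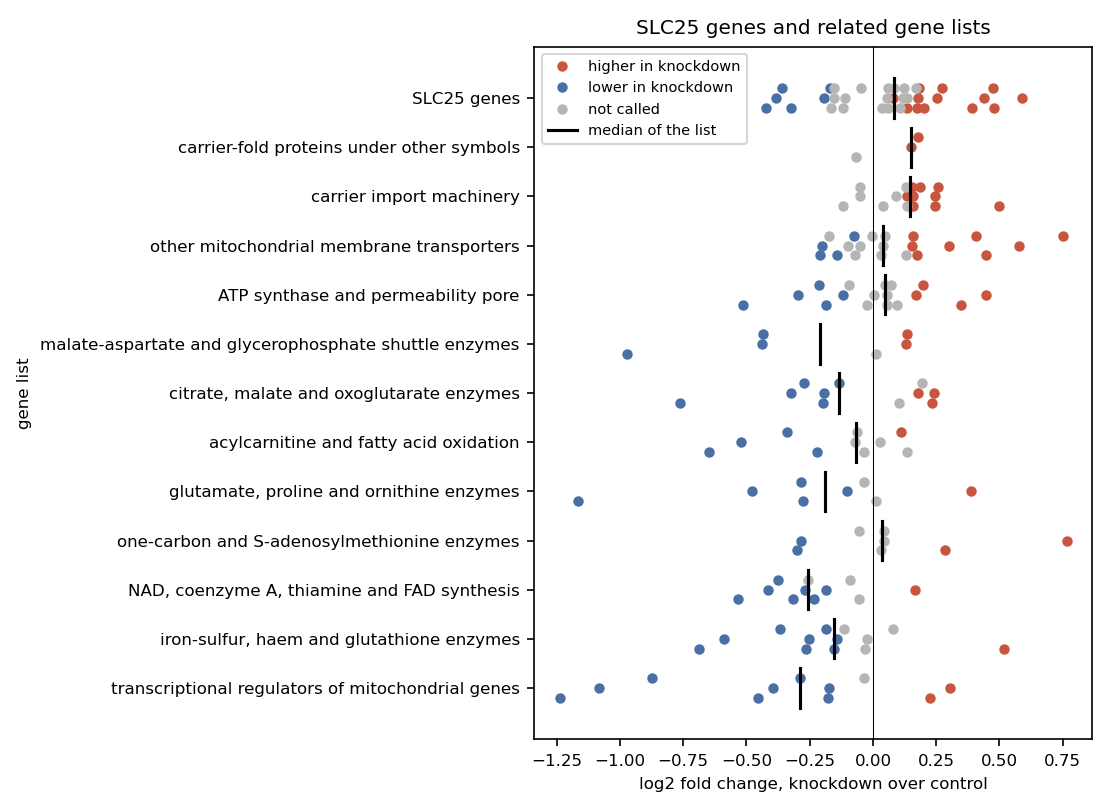
Log2 fold change, knockdown over control (x axis), of SLC25 genes and of the genes of 12 related lists (rows), each point a gene coloured by its call and each black bar a list's median. The SLC25 and import machinery points lie mostly to the right of 0, with 13 against 6 and 9 against 0 called genes, and the regulators mostly to the left, with 2 against 8.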

How the data were processed

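Gene expression was measured by RNA-seq in 3 control shRNA and 3 VprBP shRNA libraries of PC3 cells. The table the authors deposited holds a scaled signal per gene, although it is named as raw counts: from the values, each library is estimated reads times 1 step, with an upper quartile of 78.99 to 79.02. Divided by that step, 55.5% to 64.8% of a library's values came out whole to within 0.02 reads, too few to recover whole reads. Partek and hg38 are named per the submitters' processing notes; the sources used here name no aligner, annotation, strand setting or scaling. The planned test on a scaled signal was kept: limma 3.58.1 in R 4.3.3 (trend) on log2(value + 0.5), all 6 libraries, no further filter, two-sided, Benjamini-Hochberg over 12227 rows, threshold 0.05. Python 3.11.15, scipy 1.17.1 and matplotlib 3.10.9 made the permutation tests and plots. Gene positions were taken from the table (hg38), its end less 1 base, which fits GENCODE 29 for 22 of the 35 genes. Both SLC25A6 rows entered the fit and were counted once as a gene.

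Lengths and shared 50-base stretches came from GENCODE 29, where 48 symbols match the rule. The 13 unlisted ones are not analysed here. Overlaps were taken between whole gene spans at the deposited positions. One listed member, included in all counts, and 1 related gene are not reported here. Per-library values are given for the 12 called members with the largest changes, all sets of close relatives and some members near the threshold, the last chosen after their values were seen. From each related list, up to 3 called genes in each direction were eligible, by size of change, with a mean of at least 1. UCP2 and CRB3, HAT1 and LRIG1, which overlap members, were named for their place and not by size, and CPT2, CPT1B, CPT1C, TIMM13, TIMM29 and TOMM70, which were not called, after their values were seen. Members and lists were chosen with earlier results of these data known. The test was checked on simulated data. Same-numbered control and knockdown libraries did not deviate together (r = 0.018, -0.156 and -0.168 across genes, which are not independent replicates), so they were not treated as pairs. Alternatives were other scalings, pseudocounts, a filter, limma-voom on estimated reads, a constant prior variance, a replicate block, a minimum fold and leaving out each library.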

Additional observations from a re-analysis of the deposited data

How the results depend on the processing

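No called SLC25 gene changed direction under any alternative run. Against a minimum of 1.5-fold, the calls were 0 SLC25 genes higher and 0 lower, and 0 related genes higher and 5 lower. Leaving out 1 library at a time gave 10 to 14 SLC25 genes higher and 5 to 9 lower, and 30 to 34 related genes higher and 48 to 52 lower. With the replicate block, 12 SLC25 genes were higher and 6 lower: 18 of the 19 calls were kept and SLC25A3 was lost (adjusted p = 0.0978). The log2 fold change of SLC25A24 ranged from 0.55 to 0.63, of SLC25A36 from -0.46 to -0.39 and of DCAF1 from -1.01 to -0.95. With 3 libraries a group and unknown replicate type, small changes such as those of SLC25A3 and SLC25A26 rest on single libraries or settings. Genes with few estimated reads, such as SLC25A14, are the least precise.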
